A study of Mus musculus with 237 samples.

Results

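The desmosome genes Dsp, Jup, Pkp1, Pkp2, Pkp3, Dsg2, Dsg3, Dsc2 and Dsc3, together with Perp, were examined in single cells from the skin of E14.5 mouse embryos. They were chosen by symbol and matched by Ensembl identifier, and they make up 10 of the 55335 genes in the count table. Desmosomes are the junctions that rivet neighboring epithelial cells together and anchor their keratin filaments. Desmogleins and desmocollins are the cadherins that bridge the gap between cells, plakoglobin (Jup) and the plakophilins (Pkp1 to Pkp3) are armadillo-repeat proteins of the plaque beneath them, and desmoplakin (Dsp) ties that plaque to keratin. Perp is a tetraspan membrane protein of desmosomes and a known target of p63, and stratifying epidermis is known for exchanging cadherin and plakophilin isoforms from layer to layer.

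The study compared the epidermis of wild-type (WT) embryos with the surface epithelium left on p63 knockout embryos, both on a C57BL/6N background. The knockouts were made by putting a Cas9 ribonucleoprotein into zygotes by electroporation, with a guide against the exon that codes for the DNA-binding domain of p63, so each embryo is its own edited founder. WT epidermis was freed with dispase before trypsin, whereas knockout fetuses went straight into trypsin. By the paper's methods, cells were sorted as negative for propidium iodide, CD45, TER119 and CD140a. Single-cell cDNA was then screened by qPCR before sequencing, for Krt5 in WT and for Krt8 in knockout cells. Not every column of the table matched this sort and screen, as given below for mesenchymal columns. The labels describe 237 cells of 3 WT and 7 knockout embryos, with cell types that the authors assigned from marker expression in the same libraries.

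The table held 237 columns with totals of 2701500 to 19197138 estimated counts. A source paired 16 of these columns with a labeled cell, all of WT embryo WT01: 11 basal layer cells (WT-KCB), 1 intermediate layer cell (WT-KCI) and 4 K17-high cells (WT-KCP). The labels name WT-KCP cells K17 high, and the paper's supplement describes them as periderm keratinocytes. The other 221 columns carry no embryo or genotype here and were read as cells of 1 pooled sample, so no comparison between genotypes was made. In the labels, every basal layer, intermediate layer and K17-high cell is WT. Every surface ectoderm remnant and mutant fibroblast cell is from a knockout. Columns of different states may thus also differ in genotype, dissociation and qPCR screen, and these cannot be told apart here. Values are counts scaled to 1000000 per column (CPM), and a gene is called higher or lower between groups where the log2 ratio of the CPM of summed counts, with 1 CPM added to both, reached 2-fold. Cells are not replicates, so no test was run and the spread given is that among columns.

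All columns were also sorted by keratins and collagens, none of which is a member. Suprabasal columns had Krt1 and Krt10 at or above 1000 CPM (6 columns). Basal columns had Krt5 and Krt14 at or above 300 CPM with Krt8 under 100 CPM (52 columns), and simple columns had Krt8 and Krt18 at or above 100 CPM with Krt5 and Krt14 under 100 CPM (65 columns). Mesenchymal columns had Col1a1 and Col3a1 at or above 100 CPM (78 columns). A further 3 columns met 2 of these rules, 22 carried Krt8 together with Krt5 or Krt14 at or above 100 CPM, and 11 fell in none of these classes. The WT-KCI cell was a suprabasal column, and all 15 WT-KCB and WT-KCP cells were basal columns. The basal class thus includes cells that the paper places in the periderm.

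Markers outside the rules were checked in each state. The suprabasal markers Krtdap, Sbsn, Lor, Ivl, Calm4 and Klk7 summed to a median of 1817 CPM in suprabasal columns and 38.5 CPM in basal columns, with Ivl and Klk7 at 0 in both. Krt15, Itga6, Itgb4, Col17a1 and Trp63 summed to a median of 5670 CPM in basal and 469 CPM in simple columns. Krt19, Krt7, Epcam and Cldn6 summed to a median of 2370 CPM in simple and 410 CPM in basal columns. Mesenchymal markers other than Col1a1 and Col3a1 summed to a median of 26979 CPM in mesenchymal, 1027 CPM in basal (range 49.99 to 4238), 701 CPM in simple (range 2.099 to 8915) and 346 CPM in suprabasal columns (range 2.18 to 410), with Twist1 and Twist2 at 0 in the basal and suprabasal columns. Of the 65 simple columns, 32 had Col3a1 at or above 100 CPM and 2 had Epcam under 100 CPM. The periderm list (Krt17, Krt6a, Krt4, Sfn and Grhl3) had no gene at 0 in the epithelial states and summed to a median of 2272 CPM in suprabasal (range 1545 to 2721), 465 CPM in basal (range 163 to 6586) and 491 CPM in simple columns (range 5.57 to 2534). The sum of this list was thus higher in most suprabasal columns, as were most members. Krt17 alone went the other way, with a median of 19.5 CPM in suprabasal and 55.96 CPM in basal columns. In the WT-KCI cell most of the sum was Sfn (1660 CPM) and Grhl3 (967 CPM). Krt4 was at 42.2 CPM, Krt17 at 41.5 CPM and Krt6a at 0 CPM in that cell. The part of these markers in the results was not tested. Total counts differed little between suprabasal, basal and simple columns, with medians of 7545100, 7821780 and 7298100.

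More members reached 10 CPM in the epithelial columns than in most mesenchymal ones, with some overlap. The share of all genes reaching 10 CPM was not counted, and mesenchymal columns had a lower median total of 6085480 counts. The median was 8.5 members in suprabasal (range 6 to 9), 6.5 in basal (range 4 to 9) and 6 in simple columns (range 0 to 8). In mesenchymal columns it was 0 (range 0 to 3), and 41 of the 78 had none. No column of any state had all 10. The plot of members by state shows that some members filled a state evenly. By contrast, Dsg3, Dsc3, Dsc2 and Pkp2 were at or near 0 in many cells of a state and high in others. Other members were uneven too. In simple columns Dsg2 had a first quartile of 2.60 CPM and a highest value of 1066 CPM, and Dsp of 8.09 and 478 CPM. In mesenchymal columns Jup had a median of 0.685 CPM and a highest value of 218 CPM.

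**Figure D1:**
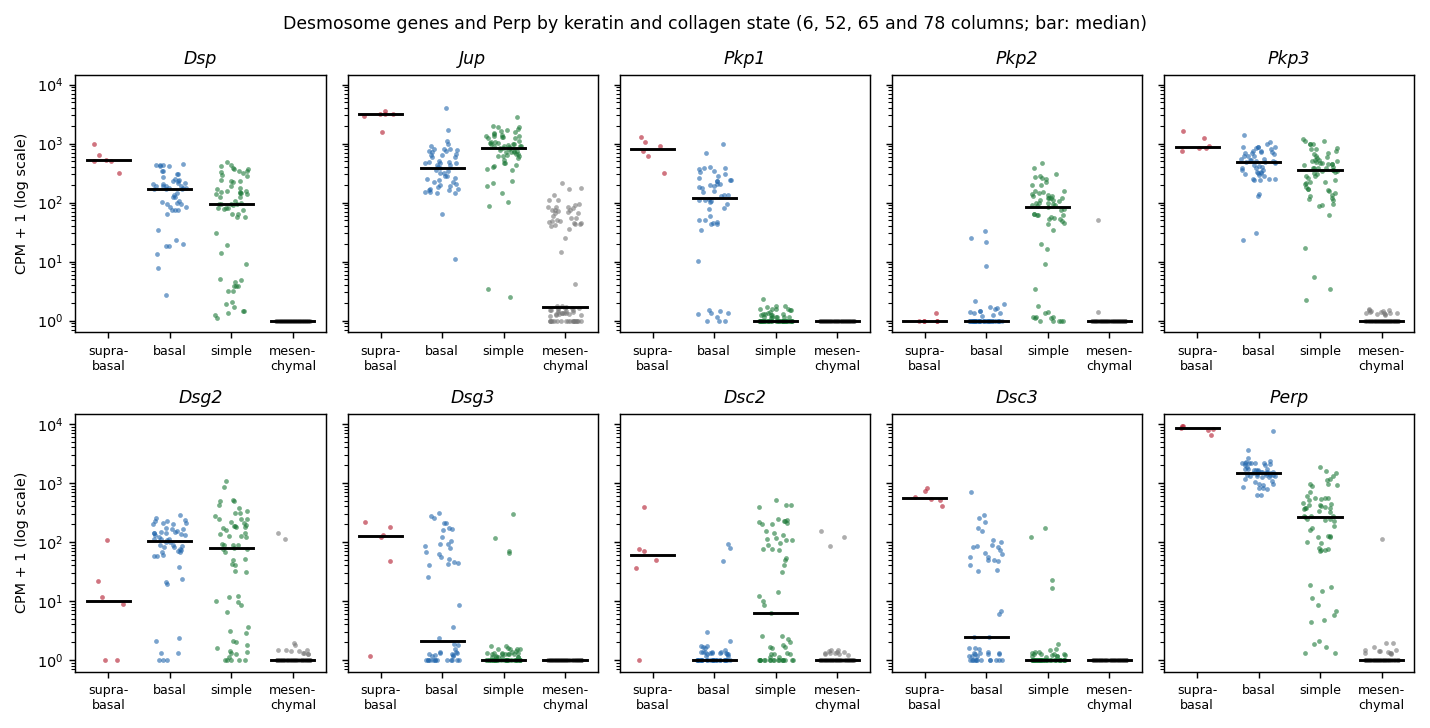
CPM + 1 on a log axis for the 10 genes, with 1 point per column in the suprabasal (6), basal (52), simple (65) and mesenchymal (78) states and a bar at the median. Perp steps down from suprabasal (median 8374 CPM) to basal (1492 CPM), simple (265 CPM) and mesenchymal columns (0 CPM), while Pkp1 and Pkp2 occupy different states.

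Suprabasal columns carried more of most desmosome genes than basal columns. Of the 10 members, 6 were at least 2-fold higher (Dsp, Jup, Pkp1, Dsc2, Dsc3 and Perp), beside 12.9% of the 15528 genes compared, and 2 were at least 2-fold lower (Dsg2 and Pkp2), beside 35.4%. Pkp3 and Dsg3 lay between these limits. The median log2 ratio of the members was 1.85, against -0.39 over all genes compared. Only 6 columns stand behind the suprabasal values, and edgeR's TMM scaling moved the median of all genes by 0.18 in this comparison and put Pkp3 and Dsg3 past 2-fold as well, which gives 8 higher.

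Perp had a CPM of 6472, 8374 and 9350 (lowest, median and highest) in suprabasal columns and of 627, 1492 and 7677 in basal columns. Of the 6 suprabasal columns, 5 lay above the highest basal column. Summed, Perp stood at 8215 CPM against 1756 CPM, a log2 ratio of 2.23. It was detected at or above 10 CPM in every suprabasal and every basal column.

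Dsp, the plakin that links the plaque to keratin, ranged from 314 to 997 CPM in suprabasal columns (median 521 CPM) and from 1.73 to 443 CPM in basal columns (median 171 CPM). Again 5 of 6 suprabasal columns lay above the highest basal column, and the log2 ratio was 1.63. Jup, the plakoglobin gene, had a median of 3154 CPM in suprabasal columns (range 1556 to 3498) and of 388 CPM in basal columns (range 9.88 to 4055). The Jup log2 ratio was 2.31, but 1 basal column at 4055 CPM exceeded every suprabasal column, so the states overlapped.

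That basal column stood near the suprabasal rule, with 838 CPM of Krt1 and 401 CPM of Krt10 beside 2735 CPM of Krt5. It held the basal maximum of 5 members, namely Jup (next highest 1720 CPM), Perp (next highest 3555 CPM), Dsc3 (next highest 281 CPM), Dsg3 (next highest 275 CPM) and Dsc2 (next highest 79.3 CPM). Against the 49 basal columns with Krt1 under 100 CPM, 7 members were at least 2-fold higher in suprabasal columns, with Dsg3 added at 1.127, and the same 2 were lower.

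Dsp lies at chr13:38151294-38198577 on the plus strand of GRCm38 and Jup at chr11:100368958-100397763 on the minus strand. They are the 2 of the 10 members for which a RefSeq promoter window (GRCm38.p6, 250 bases before to 50 after the RefSeq start) was at hand. Both are shown because both genes were higher in suprabasal than in basal columns. For Jup the RefSeq start lies upstream of the GENCODE M21 start used for the locus. The windows were searched on both strands for GCCNNNGGC (AP-2), AACNNGTT (Grainyhead) and CATG followed after any 6 bases by CATG (p53 family), letter patterns of factors that are active in epidermis, with a match in capitals. The Dsp window is chr13:38151044-38151343 (+) and the Jup window is chr11:100397741-100398040 (-), each written 5′ to 3′ in gene direction.
Dsp: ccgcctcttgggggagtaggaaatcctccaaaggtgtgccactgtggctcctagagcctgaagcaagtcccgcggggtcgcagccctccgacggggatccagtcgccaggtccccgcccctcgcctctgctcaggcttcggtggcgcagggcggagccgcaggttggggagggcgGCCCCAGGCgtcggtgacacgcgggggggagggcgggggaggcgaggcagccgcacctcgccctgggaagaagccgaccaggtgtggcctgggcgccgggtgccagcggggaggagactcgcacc
Jup: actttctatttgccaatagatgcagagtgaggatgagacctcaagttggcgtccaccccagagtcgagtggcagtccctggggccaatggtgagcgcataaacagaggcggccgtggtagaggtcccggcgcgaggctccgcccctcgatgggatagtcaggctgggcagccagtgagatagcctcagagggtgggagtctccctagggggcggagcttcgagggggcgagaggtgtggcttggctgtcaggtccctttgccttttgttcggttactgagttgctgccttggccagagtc

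The Dsp window held 1 AP-2 match, which starts 75 bases upstream of the annotated start (offset -75), and the Jup window held none of the 3 patterns. AP-2 matches were present in 16.6% of 32817 RefSeq promoter windows of this length, Grainyhead matches in 4.20% and p53 family matches in 0.710%, and GC content was 73.0% in the Dsp and 60.7% in the Jup window. A match describes letters and is not a binding site.

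The plakophilins moved differently from each other. Pkp1, which lies on chromosome 1 and is the plakophilin of stratified layers, had a median of 817 CPM in suprabasal (range 313 to 1310) and of 121 CPM in basal columns (range 0 to 992), a log2 ratio of 2.08 with overlapping columns. Pkp3, on chromosome 7, had a median of 866 CPM in suprabasal (range 760 to 1606) and of 492 CPM in basal columns (range 22.7 to 1409). Its log2 ratio was 0.92, short of 2-fold, and it reached 1.03 without the suprabasal column at 760 CPM. Pkp2, on chromosome 16 and known from simple epithelia and heart, had a count in 1 of 6 suprabasal columns (0.344 CPM) and was at or above 10 CPM in 3 of 52 basal columns. Its log2 ratio was -1.29, and it became -0.93, short of 2-fold, without the basal column at 32.5 CPM.

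Among the cadherins, Dsc3 had a median of 549 CPM in suprabasal columns (range 402 to 821) and of 1.45 CPM in basal columns (range 0 to 698). All 6 suprabasal columns were at or above 10 CPM, against 23 of 52 basal columns (44.2%, exact Clopper-Pearson 95% interval 30.5 to 58.7%). This interval treats columns as independent draws and leaves out spread between embryos. The Dsc3 log2 ratio was 3.28. Dsg3 had a median of 123 CPM in suprabasal (range 0.172 to 218) and of 1.12 CPM in basal columns (range 0 to 304). Summed, its log2 ratio was 0.87, and 1.26 without the suprabasal column at 0.172 CPM. For Dsg3 and Dsc3 the medians differed far more than the sums, with 29 of 52 basal columns under 10 CPM for each gene.

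Dsg2, the desmoglein of simple epithelia and proliferating layers, ran the other way, with a median of 9.16 CPM in suprabasal (range 0 to 109) and of 102 CPM in basal columns (range 0 to 289). Its log2 ratio was -2.40, and -3.85 without the suprabasal column at 109 CPM. Dsc2 had a median of 58.2 CPM in suprabasal (range 0 to 391) and of 0 CPM in basal columns (range 0 to 90.4). Its log2 ratio of 4.01 became 2.92 without the suprabasal column at 391 CPM and 4.80 without the basal column at 90.4 CPM, and it stayed above 2-fold in both.

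Other desmosome genes outside the 10 members were read from a fixed list of 10. Of the 8 that passed the filter of 1 CPM in either state, 7 were higher in suprabasal columns, beside 12.9% of the 15528 genes compared. The other 1 was lower, beside 35.4%. Dsc1 and Dsg1c passed only through the suprabasal columns, so neither could be called lower. Dsc1, the desmocollin of differentiating layers, ranged from 49.3 to 1397 CPM in suprabasal columns and reached at most 0.675 CPM in basal columns. The log2 ratio was 8.77, and 8.09 without the suprabasal column at 1397 CPM. The desmoglein 1 genes Dsg1a, Dsg1b and Dsg1c had log2 ratios of 5.24, 4.63 and 2.88. They are close paralogs, so the way reads were divided among them is uncertain. The basal column at 4055 CPM of Jup also had 555 CPM of Dsg1a and 173 CPM of Dsg1b, and without it the ratios were 6.90 for Dsg1a and 5.97 for Dsg1b. The envelope plakins Ppl and Evpl had log2 ratios of 2.96 and 3.41, and the plakin-binding Kazn of 1.26, which was 0.73, short of 2-fold, without the suprabasal column at 137 CPM. Pkp4, an armadillo protein found at several junctions, was lower at -1.53, and Dsg4 and Cdsn had no count in columns of these states.

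The 2 columns that met both the suprabasal and the basal rule shared part of the suprabasal pattern. Perp stood at 8381 and 7015 CPM in them, and Dsc3 at 557 and 667 CPM, all within the suprabasal range. Dsg1a was at 324 and 505 CPM, but Dsc1 was at 0 CPM in the first and 54.4 CPM in the second. Dsg2 was at 53.2 and 127 CPM, the second above every suprabasal column. Dsg3 at 278 CPM in the first was above the suprabasal range, and Pkp3 at 615 CPM there was below it.

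Simple columns carried less Perp than basal columns and differed from them in some of the isoforms they carried. Of the 10 members, 4 were at least 2-fold lower (Pkp1, Dsg3, Dsc3 and Perp), beside 13.5% of 16621 genes, and 2 were at least 2-fold higher (Pkp2 and Dsc2), beside 18.5%. Dsp, Jup, Pkp3 and Dsg2 lay within 2-fold. The median log2 ratio of the members was -0.45, against 0.04 over all genes. Both calls in the higher direction and all 4 in the lower direction were also made in the 31 simple columns with Epcam at or above 100 CPM and Col3a1 under 100 CPM, where Jup also passed 2-fold higher, at 1.10.

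Pkp1 was close to absent from simple columns. Its highest value there was 1.31 CPM, and 0 of 65 columns reached 10 CPM (exact 95% interval 0 to 5.52%), against 42 of 52 basal columns (80.8%, interval 67.5 to 90.4%). Summed, it stood at 0.189 CPM against 180 CPM, a log2 ratio of -7.25. Pkp2 showed the reverse, with a median of 84.6 CPM in simple columns (range 0 to 461) and of 0 CPM in basal columns (range 0 to 32.5). It reached 10 CPM in 50 of 65 simple columns (76.9%, interval 64.8 to 86.5%), 48 of them lay above the highest basal column, and the log2 ratio was 5.18.

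Dsc2 was at or above 10 CPM in 30 of 65 simple columns (46.2%, interval 33.7 to 58.97%) and in 3 of 52 basal columns, with ranges of 0 to 510 CPM and 0 to 90.4 CPM. Its log2 ratio was 3.63, and 4.42 without the basal column at 90.4 CPM. Dsc3 and Dsg3 each reached 10 CPM in 4 of 65 simple columns and in 23 of 52 basal columns. Their log2 ratios were -3.69 for Dsc3 and -2.87 for Dsg3, and single simple columns weighed on both: without the highest one, at 171 CPM for Dsc3 and 291 CPM for Dsg3, they were -4.59 and -3.89.

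Perp ranged from 0.317 to 1882 CPM in simple columns, with a median of 265 CPM, and 54 of 65 lay below the lowest basal column (627 CPM). The log2 ratio was -2.16. Trp63, the gene edited in the knockout, had medians of 82.7 CPM in simple and 505 CPM in basal columns and a log2 ratio of -1.499. Its reads do not assign a genotype, since a small edit need not remove the transcript. Whether Perp followed Trp63 across these columns was not tested.

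The summed levels of Dsp, Jup, Pkp3 and Dsg2 differed less between these states. Dsp reached 10 CPM in 48 of 65 simple and 50 of 52 basal columns, and Dsg2 in 44 and 45. Jup did so in 63 and 51, and Pkp3 in 62 and 52. Dsp had a median of 94.1 CPM in simple columns (range 0.104 to 478) and a log2 ratio of -0.54, with 8 of 65 columns below the lowest basal column. Jup had a median of 849 CPM (range 1.56 to 2843) and a log2 ratio of 0.75, which passed 2-fold at 1.01 without the basal column at 4055 CPM. Pkp3 had a median of 352 CPM (range 1.22 to 1204) and a log2 ratio of -0.36. Dsg2 had a median of 78.7 CPM (range 0 to 1066) and a log2 ratio of 0.50, and 10 simple columns lay above the highest basal column.

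Of the listed other desmosome genes, 7 passed the filter in this comparison. Of these, 3 were higher, beside 18.5% of 16621 genes, and 3 were lower, beside 13.5%. Dsc1 passed only through the simple columns. Kazn (log2 ratio 1.98), Evpl (1.11) and Dsc1 (2.04) were higher in simple columns, Dsg1a (-1.48), Dsg1b (-1.43) and Pkp4 (-1.02) were lower, and Ppl (0.95) lay between. Most of these calls rested on 1 column. Without the basal column at 555 CPM of Dsg1a, Dsg1a was 0.18 and Dsg1b -0.09, so neither was called, and Ppl passed 2-fold higher at 1.32. Against the 49 basal columns with Krt1 under 100 CPM, Dsg1a turned to higher, at 1.15. Pkp4 was -0.94 without the basal column at 201 CPM, and Evpl was 0.79 without the simple column at 1126 CPM. Dsc1 was held by 2 simple columns, at 124 and 118 CPM, and was 0.70 without the first.

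**Figure D2:**
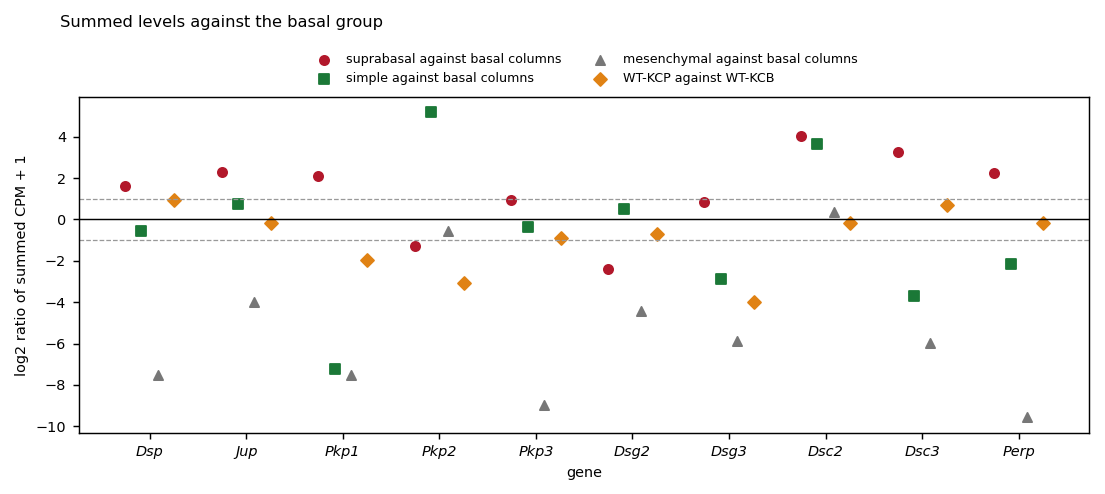
Log2 ratio of summed CPM + 1 for each gene in 4 comparisons, namely suprabasal, simple and mesenchymal columns against basal columns and WT-KCP against WT-KCB cells, with dashed lines at 2-fold. Pkp1 is at 2.08 in suprabasal and -7.25 in simple columns, and Pkp2 is at -1.29 and 5.18. Dsc2 was under the filter of 1 CPM in both WT-KCP and WT-KCB.

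The isoform balance was read per kilobase of exon, which allows genes to be set against each other. Dsg3 made up 85.5% of the Dsg2 and Dsg3 level in suprabasal columns, 37.03% in basal columns and 4.81% in simple columns. By column, Dsg3 exceeded 50% of the pair in 6 of 6 suprabasal columns, in 11 of the 51 basal columns with a count for either gene and in 6 of 64 such simple columns. The order suprabasal, basal, simple therefore held in the sums and in the counts of columns, although basal columns ranged from 0 to 100%. Without the simple column at 291 CPM of Dsg3, the simple share was 2.08%.

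Dsc3 made up 87.3% of the Dsc2 and Dsc3 level in suprabasal columns, 93.2% in basal columns and 5.39% in simple columns. It exceeded 50% in 6 of 6 suprabasal, 32 of 45 basal and 5 of 52 simple columns with a count for either gene. The simple share was 2.29% without the column at 171 CPM of Dsc3. Pkp1 made up 35.3% of the 3 plakophilins in suprabasal columns (range over columns 22.8 to 43.9%), 19.6% in basal columns (range 0 to 50.6%) and 0.0286% in simple columns (range 0 to 1.54%). The suprabasal and basal ranges of the Pkp1 share overlapped, whereas the suprabasal and simple ranges did not.

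With the other paralogs added, the desmoglein level was 202 CPM per kb in suprabasal columns, of which Dsg1a held 67.9% and Dsg1b 22.4% (a split that is uncertain between close paralogs), against 27.3 CPM per kb in basal columns, of which Dsg2 held 51.2% and Dsg3 30.1%. Simple columns had 22.3 CPM per kb of desmogleins, 88.5% of it Dsg2. The desmocollin level was 222 CPM per kb in suprabasal columns, with 50.5% Dsc3 and 42.1% Dsc1. Basal columns had 12.3 CPM per kb, 93.0% of it Dsc3, and simple columns 13.9 CPM per kb, 89.9% of it Dsc2. Dsg2 thus led the desmogleins in both basal and simple columns on this scale, whereas the leading desmocollin differed.

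Pairs of paralogs were also counted cell by cell at 10 CPM. Over all 237 columns, Pkp1 and Pkp2 were both present in 4, Pkp1 alone in 51, Pkp2 alone in 68 and neither in 114. In basal columns 39 had Pkp1 alone and 3 had both, and in simple columns 50 had Pkp2 alone and 0 had both. Dsg2 and Dsg3 shared 20 basal columns, with 25 holding Dsg2 alone and 3 Dsg3 alone, so the desmogleins were not split in the same way. Dsg3 and Dsc3, both cadherins of stratified epithelium, each reached 10 CPM in 23 basal columns and coincided in 13.

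**Figure D3:**
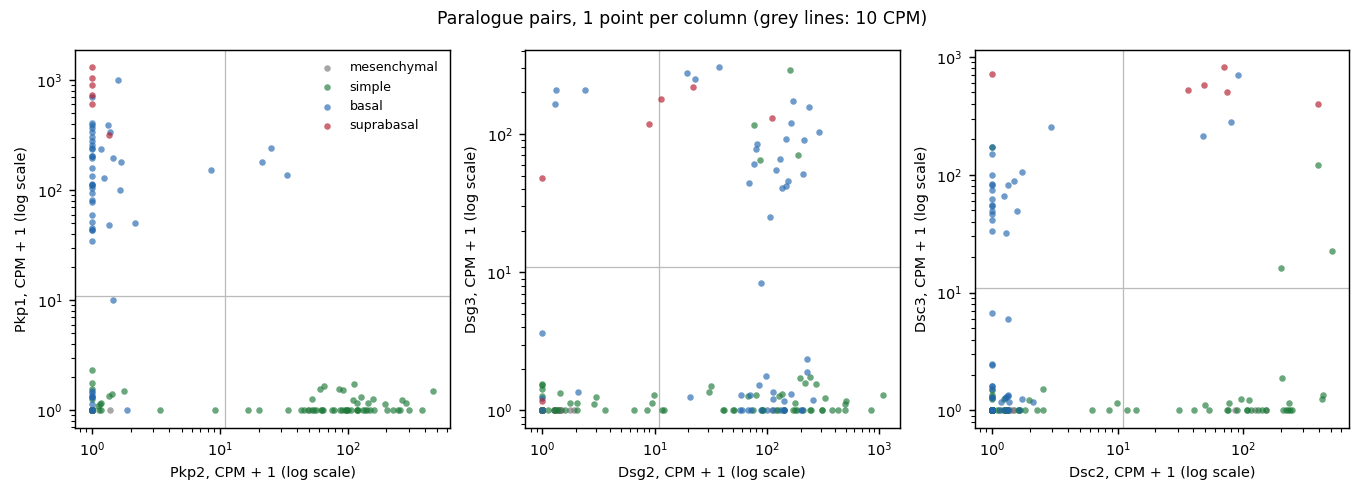
CPM + 1 on log axes for Pkp1 against Pkp2, Dsg3 against Dsg2 and Dsc3 against Dsc2, with 1 point per column colored by state and grey lines at 10 CPM. The upper right quadrant of the Pkp panel holds the 3 basal columns with both genes, whereas that of the Dsg panel holds 20 basal, 4 simple and 3 suprabasal columns.

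The 22 columns with Krt8 and a basal keratin were a mixed class, described here without a comparison. Pkp2 alone reached 10 CPM in 14 of them, Pkp1 alone in 4, both in 1 and neither in 3. Dsc2 had a median of 77.1 CPM and Dsc3 of 0 CPM, and Dsc3 made up 2.099% of the pair per kilobase, or 0.574% without the column at 111 CPM of Dsc3. Perp had a median of 882 CPM (range 139 to 4565). The Dsg3 share was 59.6% of summed levels and 0.310% as the median of columns. The 3 columns at 2409, 945 and 533 CPM held 79.99% of the Dsg3 counts, and the share was 26.6% without them.

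Mesenchymal columns served as the cell type in which an epithelial junction gene would be background. Their counts differed from the sort and keratin screen described, with Krt5 at 0 CPM and Krt8 at most 2.11 CPM. Pdgfra, the gene of CD140a, reached 10 CPM in 66 of the 78. How these columns came into the table was not tested. Dsp, Pkp1, Dsg3 and Dsc3 had no count in any of the 78 columns, for which a limit of 3 columns in 78 allows a share of up to 3.85% and the exact 95% interval runs to 4.62%. Of the 10 members, 8 were at least 2-fold lower than in basal columns, beside 19.5% of 16815 genes, and 0 were higher, beside 19.4%. The median log2 ratio was -5.92 against -0.23 over all genes, a median that TMM scaling moves by 0.26. Against a floor of 3 counts over the group, Dsp was at least 28780-fold, Pkp1 at least 28292-fold, Dsc3 at least 9699-fold and Dsg3 at least 9021-fold lower.

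Dsp, Pkp3 and Perp did not overlap between mesenchymal and basal columns. The share of all genes without overlap was not counted, so this is not read as particular to them. Pkp3 reached at most 0.547 CPM in mesenchymal columns, and Perp reached 109 CPM in 1 column and at most 0.972 CPM in the others. The Perp log2 ratio was -9.56, and -10.7 without that column. Jup was the exception among the plaque genes: 60 of 78 mesenchymal columns had a count (55 when each column was thinned to 2500000 counts), and 35 reached 10 CPM (44.9%, exact interval 33.6 to 56.6%), with a highest value of 218 CPM. Plakoglobin is also a component of adherens junctions. Its log2 ratio was -3.99.

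Dsc2 and Pkp2 were within 2-fold of the basal level in mesenchymal columns, at log2 ratios of 0.34 and -0.54, and both rest on few columns. Dsc2 reached 10 CPM in 3 mesenchymal columns, with a highest value of 152 CPM, and its ratio was -0.38 without that column and 1.12 without the basal column at 90.4 CPM. Pkp2 reached 10 CPM in 1 mesenchymal column (49.1 CPM), without which its ratio was -1.40. Dsg2 was lower at -4.44, and -5.25 without the mesenchymal column at 139 CPM. Of the other desmosome genes, 6 passed the filter. Lower were 5 of them (Dsg1a, Dsg1b, Pkp4, Ppl and Evpl), beside 19.5% of 16815 genes, and Kazn lay between at 0.28. Dsg1a, Dsg1b and Ppl passed only through the basal columns.

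The labeled cells of embryo WT01 gave the same genes by the authors' cell types. Perp ranged from 627 to 1831 CPM in the 11 WT-KCB cells (median 1384 CPM), was 6472 CPM in the WT-KCI cell and stood at 1633, 629, 1306 and 948 CPM in WT-KCP cells 1 to 4. The WT-KCI cell lay above every WT-KCB cell, and the WT-KCP cells lay within the WT-KCB range. Against the summed WT-KCB cells the WT-KCI cell was at least 2-fold higher in 8 members, beside 15.7% of 14792 genes, and lower in Dsg2 and Pkp2, beside 47.6%. This is 1 cell, and it is also 1 of the 6 suprabasal columns, so it adds no independent comparison.

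WT-KCP cells were compared with WT-KCB cells to show whether K17-high cells, the periderm cells of the paper, kept the basal set. Of the 9 members that passed the filter (Dsc2 did not), 3 were at least 2-fold lower (Pkp1, Pkp2 and Dsg3), beside 21.9% of 15387 genes, and 0 were higher, beside 17.5%. The median log2 ratio over the 10 members was -0.44 against -0.06 over all genes. A share of 3 in 9 is not far from the background, and every member overlapped between the groups.

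Pkp1 stood at 113, 42.2, 0.445 and 0 CPM in WT-KCP cells 1 to 4 and ranged from 0.509 to 301 CPM in WT-KCB cells (median 136 CPM), so 2 of the 4 lay below the lowest WT-KCB cell. The log2 ratio was -1.94, and it was -3.34 without WT-KCP cell 1 and -1.43 without WT-KCP cell 3. Dsg3 stood at 0.292, 7.41, 0.223 and 0 CPM in WT-KCP cells and ranged from 0 to 275 CPM in WT-KCB cells, of which 4 of 11 reached 10 CPM. Its log2 ratio was -4.01, and it was -5.32 without WT-KCP cell 2 and -3.10 without WT-KCB cell 9. Pkp2 had no count in WT-KCP cells and reached 10 CPM in 3 of 11 WT-KCB cells, at most 32.5 CPM, and its summed level was at least 71.2-fold lower against the floor of 3 counts over the group, or at least 45.1-fold without WT-KCB cell 4.

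The other members differed less. Dsp stood at 232, 174, 341 and 340 CPM in WT-KCP cells and had a median of 124 CPM in WT-KCB cells (range 12.3 to 410), a log2 ratio of 0.92. Pkp3 stood at 389, 129, 350 and 22.7 CPM in WT-KCP cells and had a median of 412 CPM in WT-KCB cells (range 136 to 867), a log2 ratio of -0.92. These groups overlapped for both genes. Dsp passed 2-fold higher without WT-KCP cell 2 (1.08), WT-KCB cell 1 (1.22) or WT-KCB cell 9 (1.02). Pkp3 passed 2-fold lower without WT-KCP cell 1 (-1.24), WT-KCP cell 3 (-1.27) or WT-KCB cell 2 (-1.01). Jup (-0.16), Perp (-0.18), Dsg2 (-0.70) and Dsc3 (0.67) were within 2-fold, and Dsc3 rested on single cells. It was -0.78 without WT-KCP cell 2, which had 172 CPM, and it passed 2-fold higher without WT-KCP cell 1 (1.05), WT-KCP cell 4 (1.02) or WT-KCB cell 9 (1.21).

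**Figure D4:**
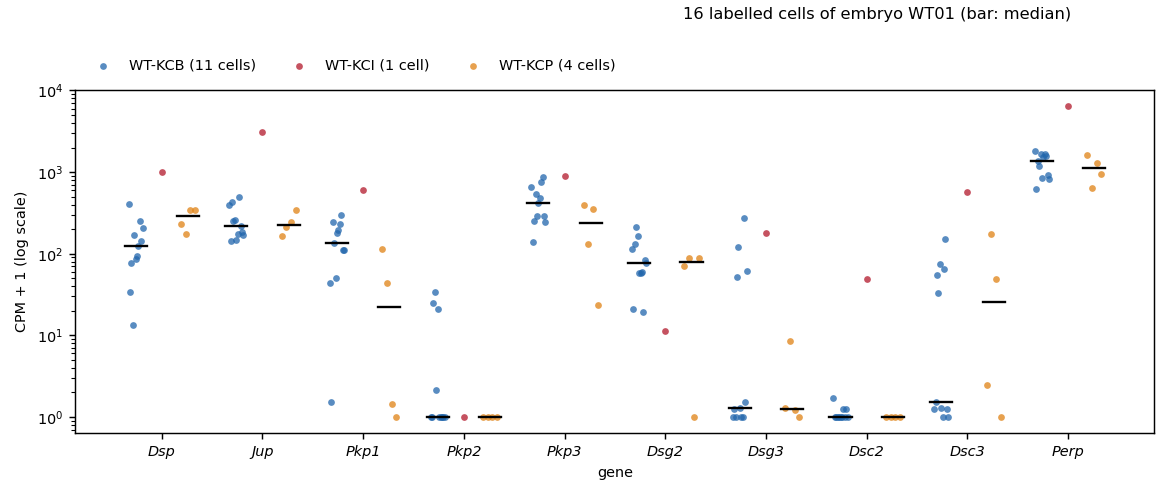
CPM + 1 on a log axis for the 10 genes in the 16 labeled cells of WT01, with 11 WT-KCB, 1 WT-KCI and 4 WT-KCP cells as points and bars at the median. The WT-KCI cell is above all WT-KCB cells for Perp (6472 against at most 1831 CPM), whereas the WT-KCB and WT-KCP points overlap for every gene.

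Genes with the most similar pattern were ranked by Spearman correlation of CPM over the 237 columns, among 13774 genes with a count in at least 25% of columns. The columns share 1 table and fall into cell types, and the size of each state weighs on these values. Perp was most like Krt5 (0.88), Sfn (0.87) and Trim29 (0.85), and Dsp was most like Perp (0.84), Sfn (0.81) and Pkp3 (0.80). Pkp3 was nearest to Perp (0.84), Sfn (0.82) and Dsp (0.80). Jup had 0.85 with Ezr and 0.84 with Gm16136.

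The plakophilins again parted, with Pkp1 nearest to Krt5 (0.82), Krt14 (0.81) and Trim29 (0.80) and Pkp2 nearest to Krt18, Krt8-ps and Gabrp (0.76, 0.76 and 0.75). Krt8-ps carries the name of a Krt8 pseudogene and may share reads with Krt8. The cadherins had lower values. Dsg2 was nearest to Bcam (0.73), Gata3 and Slc16a1, Dsg3 to Krt5 (0.67), Trim29 and Perp, Dsc3 to Perp (0.66), Aqp3 and Lgals7, and Dsc2 to Nectin4 (0.60), Jup and Cldn6. Within the basal columns alone the 45 pairs of members had a median correlation of 0.16 (range -0.22 to 0.58), and Dsp with Perp had 0.44, against 0.84 over all columns.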

How the data were processed

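The authors made single-cell cDNA and libraries with SMART-Seq HT and Nextera XT, trimmed reads with Trimmomatic, used HISAT2 for alignment to mm10 and obtained gene counts from featureCounts with an Ensembl annotation, per the labels and the study's methods. The deposited values are estimated counts, of which 23.2% of nonzero values are fractional. Strand and multi-mapping settings are not given in the sources used here. There are no molecular identifiers, and exact Poisson 95% intervals cover counting error only. Clopper-Pearson 95% intervals treat columns as independent draws and leave out spread between embryos. Dsp overlaps antisense Gm10129 (499 bp) and Dsg2 overlaps antisense Gm16090 (330 bp), which may share reads.

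Counts were rounded, divided by the column total and multiplied to CPM. Column names are sequencing runs, and 221 columns were not paired with a sample. Groups were compared by summed counts with 1 CPM added, among genes at 1 CPM or more in either group and with no test. Levels between genes used union exon length from GENCODE M21 (GRCm38, the assembly of mm10). Python 3.11.15, numpy 2.4.6, pandas 2.3.3, scipy 1.17.1 and edgeR 4.0.16 (TMM) in R 4.3.3 were used, and the scripts were tested on simulated data. Doublets were not called, and columns meeting 2 rules were kept apart. The median of the columns' CPM, leaving out columns, marker filters, thinning and the mixed keratin class were chosen after seeing the data.

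Genes named are the 10 members, a list of 10 other desmosome genes, cell type markers, Trp63 and the 3 genes most correlated with each member, of which 1 is not reported here. Members and lists were chosen with earlier results of these data known.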

Additional observations from a re-analysis of the deposited data

Results flagged for a closer look

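Of 20 groups of 4 or 6 values examined, 5 held a value far from the rest. The cut-offs flag about 1 in 20 groups of normally distributed values. That rate need not hold for skewed CPM with many zeros, so the number of flags is not read against it. In WT-KCP, cell 2 had the highest Dsg3 value at 7.41 CPM. Among the 6 suprabasal columns, column 3 had the lowest Jup value at 1556 CPM and the only Pkp2 value above 0 at 0.344 CPM. Column 5 had the highest Dsg2 value at 109 CPM and column 4 the highest Dsc2 value at 391 CPM. Suprabasal columns are numbered by their place in the table.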

How the results depend on the processing

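No member past 2-fold turned its direction under any setting tried. Among members within 2-fold, Dsg2 in simple columns was -0.37 with the median of the columns' CPM, Dsc2 in mesenchymal columns was -0.57 at doubled thresholds and -0.61 with columns meeting 2 rules kept, where Pkp2 was 0.13, and Perp was 0.01 without WT-KCP cell 2. Leaving out each WT-KCP or WT-KCB cell gave 3 to 4 members lower and 0 to 2 higher. Leaving out each column gave 1 to 2 lower and 6 to 8 higher in suprabasal columns, 4 lower and 2 to 3 higher in simple columns and 8 to 9 lower and 0 to 1 higher in mesenchymal columns. With the median of the columns' CPM, 1 member was lower in suprabasal columns, and against basal columns with Krt1 under 100 CPM 1 member (Dsc2) was higher in mesenchymal columns. The Dsg3 share without length was 83.3% in suprabasal, 33.2% in basal and 4.09% in simple columns, and as a mean of the columns' shares 90.1%, 28.7% and 11.2%. At doubled thresholds it was 38.6% in basal and 6.22% in simple columns. The Dsc3 share as a mean was 85.8%, 76.8% and 12.1%, and at doubled thresholds 88.1% in basal and 4.81% in simple columns. The Pkp1 share without length was 43.2%, 25.3% and 0.0373%, as a mean 17.3% in basal and 0.0519% in simple columns, and at doubled thresholds 20.2% in basal columns. The cause was not tested. A minimum of 1000000 counts removed no column, and leaving the 4 WT-KCP cells out of the basal columns changed no count of members. No paired analysis was possible because the labeled cells come from 1 embryo and their numbers only name cells. Depth limits genes near the floor, such as Pkp2 in suprabasal columns (4 counts).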
